A study of Homo sapiens with 12 samples.

Results

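The mRNA of 9 genes that repair DNA breaks or signal them, BRCA1, BRCA2, ATM, ATR, CHEK2, PALB2, FANCD2, CDK12 and PARP1, was followed across 3 human prostate cell lines. The genes were picked by name, with earlier results of these data known, and each had 1 row among the 58302 genes of the deposited table. BPH-1 is a benign prostate epithelial line immortalized with the SV40 large T antigen, DU145 is a prostate cancer (PCa) line from a brain metastasis, and PC3 is a PCa line from a bone metastasis. Each line had 4 RNA-sequencing libraries, was labelled as prostate and of WT genotype, and was grown without treatment in Dulbecco's modified Eagle's medium with fetal bovine serum and antibiotics. Each group was therefore 1 established line, and a difference between lines could not be told apart from a difference between benign and malignant cells. No label stated that the 4 libraries of a line came from separate cultures, so the p-values measured the spread between these libraries only.

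Homologous recombination repairs a double-strand break by copying the intact sister chromatid. ATM and ATR are the kinases that signal breaks and stalled forks, CHEK2 is a checkpoint kinase below ATM, BRCA1 acts at the resected ends, PALB2 joins it to BRCA2, and BRCA2 prepares the resected strand for invasion of the sister chromatid. FANCD2 is the protein that the Fanconi anaemia pathway ubiquitinates at crosslinks, CDK12 is the cyclin K-dependent kinase of RNA polymerase II that sustains transcription of long repair genes, and PARP1 binds strand breaks and is the target of PARP inhibitors. Inherited or acquired loss of several of these genes is known in advanced PCa and is the ground for giving PARP inhibitors there.

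The values were FPKM, the fragments of a gene scaled to the length of its exons and to the reads of the library. Depth recovered from the steps between low values was 12950672 to 16309570 reads per library. The lines matched some of their known features: CTNNA1, which PC3 lacks, was at 0.0367 to 0.0719 FPKM in PC3 and at 12.3 or more in every other library, and KRT5 was at 120 to 175 in BPH-1 and at most 0.499 elsewhere. Prostate markers were mostly absent, with KLK3 listed at 0 in all 12 libraries. Libraries stood apart in 2 ways. First, transcripts rich in A and U were low in part of the libraries. They were followed in 2975 genes of any type with a GC content under 42% and a mean of at least 50 reads. The median FPKM of these genes was 4.54 to 4.87 in BPH-1. It was 0.853, 2.26, 0.541 and 1.92 in DU145 replicates 1 to 4, and 1.93, 1.77, 1.18 and 0.732 in PC3 replicates 1 to 4. Second, the leukocyte genes LYZ and PTPRC, singled out after their values were seen, were present in all BPH-1 libraries and in DU145 replicates 1 and 2. LYZ was at 7.61 to 10.1 FPKM in BPH-1, at 7.76 and 8.63 in DU145 replicates 1 and 2, at 0 in DU145 replicates 3 and 4 and at most 0.167 in PC3, and PTPRC was at 1.15 to 1.54, 1.35 and 1.25, 0 and 0 in the same order, and was at 0 in PC3. CD68, a macrophage gene of the same list that many other cells also express, did not follow them, at 3.43 to 6.57 FPKM in BPH-1, 3.83 to 9.95 in DU145 and 6.86 to 13.5 in PC3. The blood genes CD14 and HBB, also singled out after their values were seen, had the split of LYZ and PTPRC at low levels. CD14 was at 0.538 to 0.884 FPKM in BPH-1, at 0.416, 0.382, 0 and 0.0387 in DU145 replicates 1 to 4 and at 0.02 to 0.2 in PC3. HBB was at 0.154 to 0.258 in BPH-1, at 0.27, 0.122, 0 and 0 in DU145 and at 0 in PC3. The fibroblast, immune and endothelial list of 10 genes summed to 16.0 to 22.2 FPKM in BPH-1, 6.05 to 15.7 in DU145 and 11.4 to 19.1 in PC3, with DCN listed at 0 in every library but DU145 replicates 3 and 4. The part of these genes in the results was not tested, and in PC3 the absence of LYZ and PTPRC could not be told apart from the line.

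Because composition separated the libraries, the bases of the transcripts are shown first. The GC content of the longest annotated transcript was 36.3% for BRCA2, 39.1% for ATM, 40% for ATR, 41.9% for BRCA1, 42.8% for PALB2, 44.0% for FANCD2, 44.2% for CDK12, 45.8% for CHEK2 and 49.6% for PARP1. The lines below give the central 120 bases of the longest coding stretch within 1 exon, 5′ to 3′ on the coding strand of GRCh38, for 4 genes that were low in both PCa lines, CDK12 among them as the one richest in G and C, and for the 2 that were higher in PC3. G and C are in capitals. The BRCA2 stretch, in exon 11 of 27 (chr13:32338671-32338790, plus strand), is 26.7% GC, the ATR stretch, in exon 4 of 47 (chr3:142562611-142562730, minus strand), is 39.2%, and the BRCA1 stretch, in exon 10 of 24 (chr17:43093088-43093207, minus strand), is 42.5%. The CDK12 stretch, in exon 1 of 14 (chr17:39462535-39462654, plus strand), is 53.3%, near that of CHEK2. The CHEK2 stretch, in exon 2 of 16 (chr22:28734502-28734621, minus strand), is 54.2% GC and the PARP1 stretch, in exon 10 of 23 (chr1:226379983-226380102, minus strand), is 58.3%. A stretch can differ from its whole coding sequence, which is 35.7% GC in BRCA2, 50.5% in CDK12, 46.0% in CHEK2 and 51.3% in PARP1.
BRCA2: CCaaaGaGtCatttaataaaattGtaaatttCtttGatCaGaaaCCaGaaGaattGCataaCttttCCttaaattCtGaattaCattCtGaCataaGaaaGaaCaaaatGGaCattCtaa
ATR: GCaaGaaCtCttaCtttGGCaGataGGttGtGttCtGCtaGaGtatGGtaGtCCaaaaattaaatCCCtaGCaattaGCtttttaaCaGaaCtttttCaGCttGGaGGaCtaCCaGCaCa
BRCA1: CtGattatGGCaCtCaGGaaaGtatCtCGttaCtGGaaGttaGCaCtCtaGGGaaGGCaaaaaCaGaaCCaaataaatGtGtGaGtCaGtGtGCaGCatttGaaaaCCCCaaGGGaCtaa
CDK12: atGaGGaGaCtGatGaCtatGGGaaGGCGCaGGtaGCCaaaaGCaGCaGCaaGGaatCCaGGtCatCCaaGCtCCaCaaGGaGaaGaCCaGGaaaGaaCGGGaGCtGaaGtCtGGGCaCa
CHEK2: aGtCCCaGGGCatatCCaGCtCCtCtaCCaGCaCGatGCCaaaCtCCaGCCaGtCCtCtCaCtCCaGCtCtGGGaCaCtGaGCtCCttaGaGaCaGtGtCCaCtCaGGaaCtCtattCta
PARP1: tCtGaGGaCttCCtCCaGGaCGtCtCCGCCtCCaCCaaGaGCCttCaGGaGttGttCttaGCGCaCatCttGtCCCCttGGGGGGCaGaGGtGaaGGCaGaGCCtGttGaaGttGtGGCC

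The question of the first comparisons was which repair genes differ between each PCa line and the benign line. In both PCa lines BRCA1, BRCA2, ATM, ATR, PALB2 and CDK12 were lower than in BPH-1, and PARP1 was higher. CHEK2 was called in PC3, where it was higher, and not in DU145, and FANCD2 passed the test in neither line. A gene was called at an adjusted p under 0.05, from limma on log2(FPKM + 1) with Benjamini-Hochberg adjustment over all genes tested. In PC3, 6 of the 9 genes were called lower and 2 higher, where 40.4% of the 16398 genes tested were called lower and 27.1% higher. In DU145, 6 were called lower and 1 higher, where 32.3% of the 17003 genes tested were called lower and 30.3% higher. Both comparisons share the BPH-1 libraries. Over all genes the calls in PC3 were 4452 higher and 6630 lower, and upper-quartile scaling turned these to 6102 higher and 5066 lower. The median log2 fold change of the 9 genes was -1.38 in PC3, beside -0.13 over all genes tested, and -1.49 in DU145, beside -0.03. In PC3 the 4 libraries lay outside the range of the BPH-1 libraries for 6 genes on the lower side and 2 on the higher side, against 38.6% and 25.8% of the genes tested. In DU145 they did so for 7 and 1, against 30.6% and 28.8%. All 9 genes passed the filter on low values. BRCA2 was thinnest, with 5 reads in a PC3 library and 10 in a DU145 library, while the others had at least 16 reads in every library. In neither PCa line did all 4 libraries reach the filter's limit for BRCA2. Its pass against BPH-1 therefore needed the BPH-1 libraries, where it was high. In libraries of whole cultures, fewer cells that make a transcript and less of it per cell cannot be told apart.

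**Figure D1:**
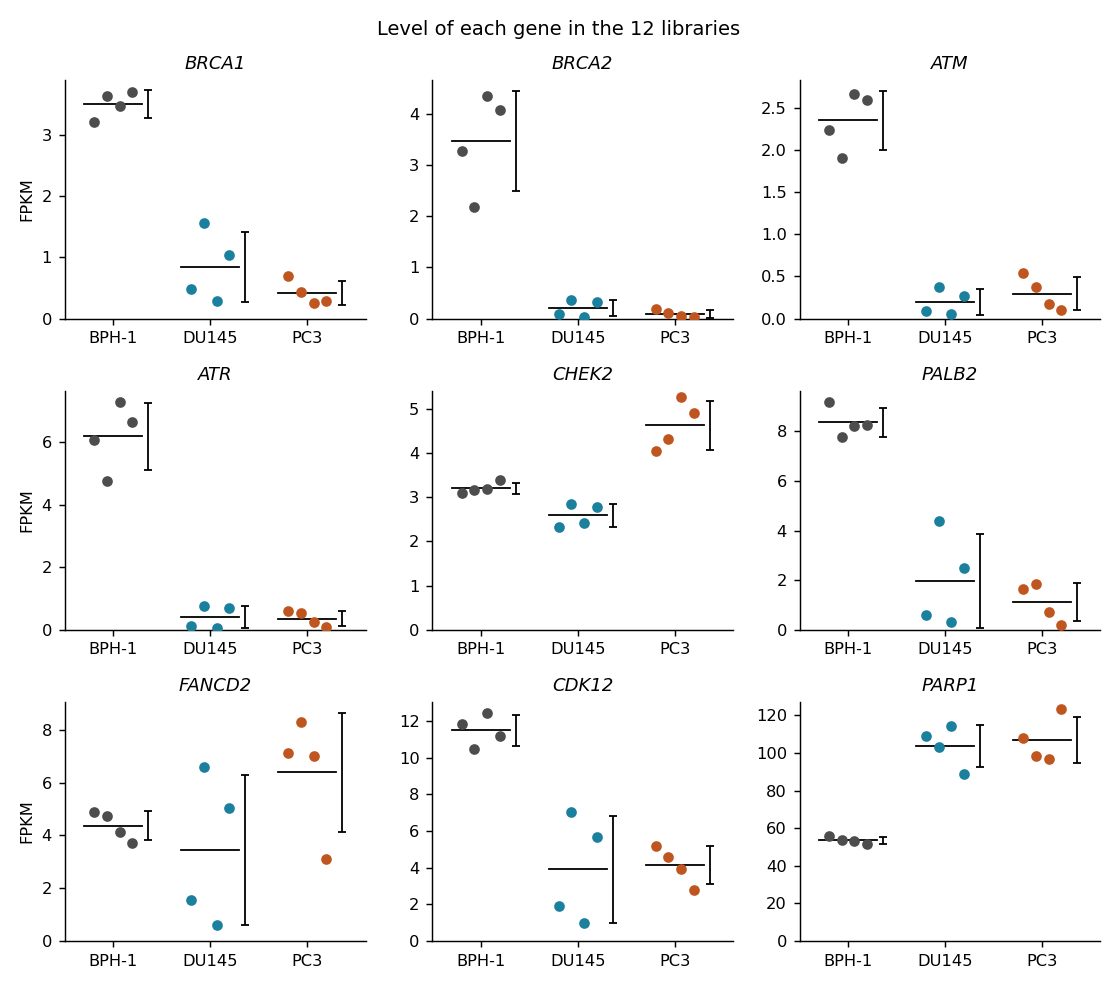
FPKM of each of the 9 genes (y axis, linear from 0, a separate scale for each gene) in the 4 libraries of BPH-1, DU145 and PC3 (points, replicates 1 to 4 from left to right). Horizontal lines are means and bars are SD (n = 4). BRCA1, BRCA2, ATM, ATR, PALB2 and CDK12 lay below every BPH-1 library in all 8 PCa libraries, and PARP1 lay above.

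Among the apical kinases, ATM was at 2.24, 1.91, 2.67 and 2.59 FPKM in BPH-1 replicates 1 to 4, at 0.0956, 0.380, 0.0520 and 0.268 in DU145 and at 0.536, 0.375, 0.175 and 0.0982 in PC3. All BPH-1 libraries were high, and no PCa library came near them. The log2 fold change was -1.38 (SE 0.13, adjusted p = 1.37e-05, limma) in PC3 and -1.49 (SE 0.13, adjusted p = 8.13e-06, limma) in DU145, for a ratio of mean FPKM, BPH-1 over the PCa line, of 7.93 and 11.8. The log2 values are smaller than these ratios because of the 1 added to each FPKM.

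ATR, which answers to single-stranded DNA at forks, was at 6.08, 4.77, 7.29 and 6.67 FPKM in BPH-1, at 0.131, 0.747, 0.0711 and 0.697 in DU145 and at 0.588, 0.536, 0.237 and 0.0797 in PC3. It was the most lowered of the 9 in log2 fold change in both lines, at -2.41 (SE 0.17, adjusted p = 2.14e-06, limma) in PC3 and -2.37 (SE 0.21, adjusted p = 9.97e-06, limma) in DU145. In PC3 this rank depended on the fit. With 0.1 added to each FPKM instead of 1, BRCA2 was lower there (-4.245 against -3.948 for ATR). With the trend against GC content and length divided out, PALB2 was lower (-1.675 against -1.381). In DU145 ATR stayed the most lowered in both fits. DU145 replicates 2 and 4 were higher than replicates 1 and 3 for both kinases, and PC3 replicate 4 was the lowest PC3 library for both.

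CHEK2 behaved otherwise. It was at 3.08, 3.15, 3.18 and 3.39 FPKM in BPH-1, at 2.33, 2.85, 2.41 and 2.77 in DU145 and at 4.04, 4.31, 5.26 and 4.91 in PC3. The 3 lines did not overlap, with DU145 lowest and PC3 highest. PC3 exceeded BPH-1 by a log2 fold change of 0.42 (SE 0.11, adjusted p = 0.00792, limma), which fell short of the threshold when every library was scaled to the same summed FPKM (0.20, adjusted p = 0.127, limma). The DU145 difference of -0.23 (SE 0.14, adjusted p = 0.169, limma) was not called, although each DU145 library was below each BPH-1 library. The exact two-sided permutation test over the libraries gave an adjusted p of 0.0481, the smallest it can give here, and scaling to the same summed FPKM gave -0.42 (adjusted p = 0.0236, limma). CHEK2 varied little within a line, with a coefficient of variation of 4.04% in BPH-1, 10% in DU145 and 12% in PC3.

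In the BRCA1-PALB2-BRCA2 chain, BRCA1 was at 3.21, 3.64, 3.48 and 3.71 FPKM in BPH-1, at 0.481, 1.57, 0.286 and 1.03 in DU145 and at 0.695, 0.442, 0.259 and 0.293 in PC3. BPH-1 libraries were close together and all above the PCa libraries. BRCA1 fell by 1.67 on the log2 scale in PC3 (SE 0.12, adjusted p = 2.38e-06, limma) and by 1.34 in DU145 (SE 0.21, adjusted p = 0.000395, limma).

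PALB2 was at 9.18, 7.79, 8.22 and 8.26 FPKM in BPH-1, at 0.609, 4.4, 0.315 and 2.5 in DU145 and at 1.66, 1.85, 0.722 and 0.211 in PC3. Its DU145 libraries spread over a 14-fold range, the widest among the 9 genes in that line, and none reached BPH-1. The log2 fold change was -2.23 (SE 0.25, adjusted p = 4.64e-05, limma) in PC3 and -1.90 (SE 0.40, adjusted p = 0.00217, limma) in DU145.

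BRCA2 was at 3.27, 2.18, 4.36 and 4.08 FPKM in BPH-1, at 0.0965, 0.368, 0.0405 and 0.322 in DU145 and at 0.193, 0.110, 0.0451 and 0.0241 in PC3. It had the largest ratio of mean FPKM, 37.3 for BPH-1 over PC3 and 16.8 for BPH-1 over DU145. The log2 fold change was -2.01 (SE 0.16, adjusted p = 5.25e-06, limma) in PC3 and -1.87 (SE 0.18, adjusted p = 1.83e-05, limma) in DU145. Between the PCa lines BRCA2 overlapped, and its difference of -0.14 (SE 0.10, adjusted p = 0.276, limma) was not called.

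FANCD2 was the least settled of the 9. It was at 4.89, 4.74, 4.12 and 3.70 FPKM in BPH-1, at 1.55, 6.58, 0.611 and 5.05 in DU145 and at 7.14, 8.31, 6.99 and 3.11 in PC3. DU145 replicates 2 and 4 lay above all BPH-1 libraries and replicates 1 and 3 below all of them, and in PC3 only replicate 4 lay below. The log2 fold change was 0.40 in PC3 (SE 0.24, adjusted p = 0.162, limma) and -0.53 in DU145 (SE 0.43, adjusted p = 0.31, limma). Without PC3 replicate 4, FANCD2 was called higher in PC3, at 0.66 (adjusted p = 0.00126, limma). Without DU145 replicates 1 and 3 the DU145 difference changed sign to 0.34 and was not called (adjusted p = 0.0882, limma).

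CDK12 was at 11.8, 10.5, 12.5 and 11.2 FPKM in BPH-1, at 1.89, 7.03, 0.999 and 5.69 in DU145 and at 5.19, 4.60, 3.93 and 2.78 in PC3. All PCa libraries were lower than all BPH-1 libraries, and DU145 replicates 2 and 4 came nearest. It fell by 1.31 on the log2 scale in PC3 (SE 0.16, adjusted p = 6.69e-05, limma) and by 1.57 in DU145 (SE 0.40, adjusted p = 0.00636, limma), and without DU145 replicates 1 and 3 the value in DU145 was -0.77 (adjusted p = 0.00155, limma).

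PARP1 was at 55.8, 53.9, 53.0 and 51.6 FPKM in BPH-1, at 109, 103, 115 and 88.6 in DU145 and at 108, 98.3, 96.9 and 123 in PC3. Every PCa library was above every BPH-1 library, and the means were 1.94-fold and 1.99-fold that of BPH-1 in DU145 and PC3. The log2 fold change was 0.97 (SE 0.10, adjusted p = 2.75e-05, limma) in PC3 and 0.94 (SE 0.14, adjusted p = 0.000225, limma) in DU145. With the FPKM rescaled to the length of the longest transcript, so that genes could be compared, PARP1 was the most abundant of the 9 in each line, at 131.8 in BPH-1, and BRCA2 the least, at 4.63 in BPH-1. In PC3 the same 2 genes stood at 262.4 and 0.124.

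PC3 and DU145 were then compared with each other. CHEK2 was the 1 gene of the 9 called, where 20.0% of the 16409 genes tested were called higher in PC3 and 28.4% lower, and where the lines did not overlap for 19.1% and 27.5%. Its log2 fold change was 0.65 (SE 0.14, adjusted p = 0.00452, limma), and all 4 PC3 libraries exceeded all 4 DU145 libraries. The other 8 genes overlapped between the PCa lines, with log2 fold changes from -0.33 for BRCA1 and PALB2 to 0.93 for FANCD2. Their SE ran from 0.10 (BRCA2) to 0.49 (FANCD2). With DU145 replicates 1 and 3 and PC3 replicate 4 left out, BRCA1 (-0.65, adjusted p = 0.0187, limma), BRCA2 (-0.27, adjusted p = 0.0164, limma) and PALB2 (-0.88, adjusted p = 0.0465, limma) were also called, all lower in PC3, where 23.4% of genes were called higher and 34.3% lower. With the trend against GC content divided out, BRCA1 (-0.33, adjusted p = 0.0125, limma) and FANCD2 (0.92, adjusted p = 0.032, limma) joined CHEK2, where 27.9% of genes were called higher and 30.9% lower. With GC content and length divided out, BRCA2 (-0.14, adjusted p = 0.0114, limma) joined them too, where 29.6% were called higher and 31.7% lower.

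Changes of all genes followed base composition, and the 9 genes are therefore set against genes of like composition. Among protein-coding genes tested, the median log2 fold change in PC3 was -1.03 for a GC content under 40%, -0.52 for 40 to 45%, -0.12 for 45 to 50%, 0.07 for 50 to 55% and 0.22 above 55%. In DU145 the same medians were -1.05, -0.54, -0.06, 0.23 and 0.34. Of genes under 40% GC, 81.0% were called lower in PC3 and 75.0% in DU145, so the calls of BRCA2 and ATM were those of most genes of their class. The 6 lowered genes lay below the median of their class in both lines, and PARP1 lay above that of its class. By definition, as many genes of a class lie below its median as above. Length added to the pattern: in the lowest class, genes with a longest transcript over 5000 bases had a median of -1.21 in PC3 and -1.29 in DU145, and those up to 5000 bases of -0.89 and -0.88. The longest transcripts of BRCA2 and ATM have 11986 and 13147 bases. Beside the medians of these long genes, ATM was at -1.38 (SE 0.13) in PC3 and -1.49 (SE 0.13) in DU145. BRCA2 was at -2.01 (SE 0.16) and -1.87 (SE 0.18).

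**Figure D2:**
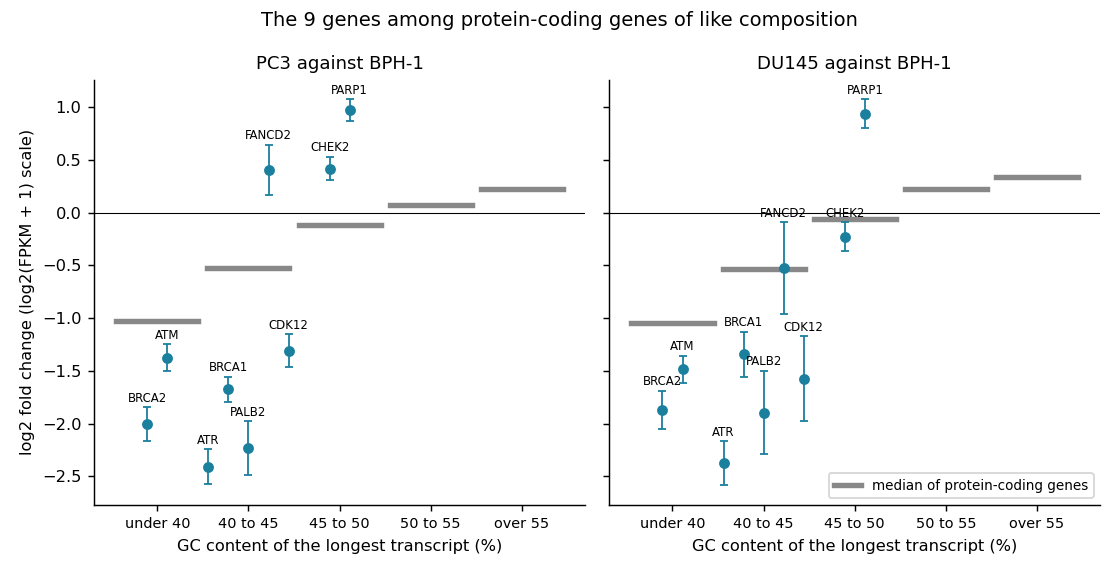
Log2 fold change on the log2(FPKM + 1) scale (y axis) of the 9 genes (points, bars are SE) by the GC class of the longest transcript (x axis, percent), against BPH-1 in PC3 (left) and DU145 (right). Grey bars are the medians of all protein-coding genes tested in a class, from -1.03 to 0.22 in PC3 and from -1.05 to 0.34 in DU145.

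With each library's trend against GC content and length divided out, the falls became smaller and the calls remained. The log2 fold change in PC3 became -0.91 for BRCA1, -1.68 for PALB2, -1.38 for ATR, -0.98 for BRCA2, -0.54 for CDK12 and -0.32 for ATM. In DU145 the values were -0.38, -1.23, -1.26, -0.55, -0.68 and -0.45 in the same order. All 12 of these calls held at an adjusted p of at most 0.00709 (limma). The fall of ATM in PC3 went from -1.38 to -0.32, and that of BRCA2 in DU145 from -1.87 to -0.55. PARP1 kept 0.95 in PC3 and 0.74 in DU145. FANCD2 was called higher in PC3, at 1.02 (SE 0.14, adjusted p = 0.00017, limma), and stood at 0.09 (adjusted p = 0.773, limma) in DU145. After this step 33.8% of genes were called lower and 30.5% higher in PC3, and 30.9% and 32.7% in DU145. Any real difference that follows composition or length is removed with the trend.

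**Figure D3:**
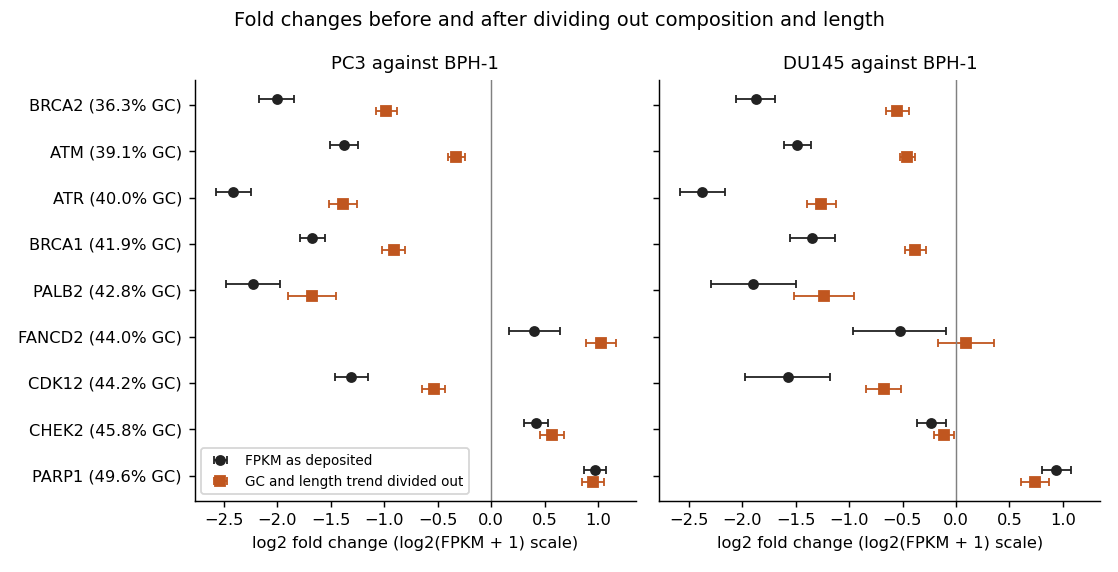
Log2 fold change against BPH-1 (x axis, log2(FPKM + 1) scale, bars are SE) for PC3 (left) and DU145 (right), from the deposited FPKM (circles) and with the trend against GC content and length divided out (squares). Genes run from the lowest GC content at the top to the highest. The 6 lowered genes stayed below 0 in both forms, while FANCD2 moved from 0.40 to 1.02 in PC3.

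The libraries low in AU-rich transcripts were also low in most of the 9 genes. In DU145 the order of replicates 2, 4, 1 and 3, from high to low, was that of the AU-rich median and of 7 of the 9 genes, the exceptions being CHEK2 and PARP1. In PC3 the order of replicates 1 to 4 held for ATM, ATR, BRCA2 and CDK12, and in BPH-1 no gene had the order of the AU-rich median. The part of this split in the lines' differences was not tested beyond leaving libraries out. With DU145 replicates 1 and 3 left out, ATR was at -2.05, BRCA2 at -1.71, ATM at -1.34, PALB2 at -1.11, BRCA1 at -0.98 and CDK12 at -0.77 in log2 fold change, all called by limma at an adjusted p of at most 0.00189, where 29.8% of genes were called lower and 29.2% higher. Without PC3 replicate 4 the 6 falls in PC3 were called as well, where 40.4% of genes were called lower and 26.7% higher. The same 7 DU145 genes were called with replicates 1 and 2, the libraries with LYZ and PTPRC, left out, where 28.5% of genes were called lower and 26.4% higher. They were called with replicates 3 and 4 left out too, where 27.8% and 25.4% were called. In both fits the adjusted p was at most 0.0148 (limma).

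**Figure D4:**
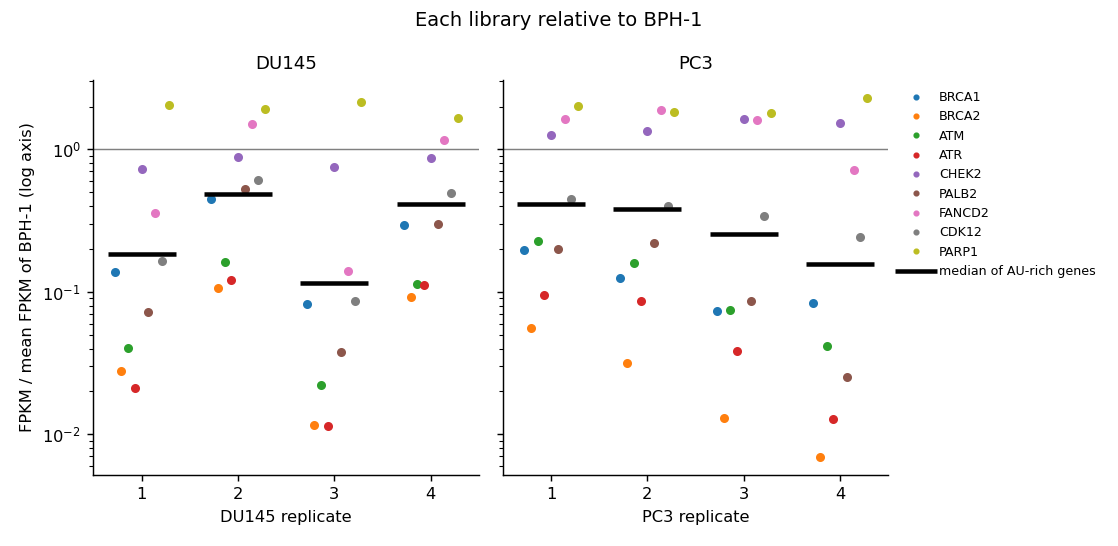
FPKM of each gene divided by its mean in BPH-1 (y axis, log axis, 1 is the BPH-1 mean) in DU145 (left) and PC3 (right) replicates 1 to 4 (x axis). Black bars are the median FPKM of AU-rich genes divided by its BPH-1 mean. BRCA1, BRCA2, ATM and ATR lay below the black bar in all 8 libraries, and PARP1 lay above 1 in all 8.

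Genes that share a start region or sequence with the 9 were examined, because the use of strand in counting was not given in the sources used here. NPAT, a histone gene activator read from the other strand, overlaps the first bases of ATM by 159 bases. It was at 2.71, 2.79, 2.85 and 4.14 FPKM in BPH-1, 0.0159, 0.369, 0.0390 and 0.269 in DU145 and 0.498, 0.326, 0.0868 and 0.0465 in PC3. NPAT was thus low in the same libraries as ATM, with a log2 fold change of -1.74 (adjusted p = 9.46e-06, limma) in PC3 and -1.81 (adjusted p = 7.69e-06, limma) in DU145. Its transcript is 37.4% GC.

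Near BRCA1 the neighbours differed among themselves. AC060780.1, a lincRNA on the same strand that overlaps BRCA1 by 21878 bases, was called lower in both lines, as BRCA1 was, with a log2 fold change of -1.12 (adjusted p = 1.15e-05, limma) in PC3 and -0.81 (adjusted p = 0.000672, limma) in DU145. NBR2, a noncoding gene that starts beside the main BRCA1 start on the other strand, had means of 2.16 ± 0.18, 5.74 ± 1.77 and 1.47 ± 0.26 FPKM (SD, n = 4) in BPH-1, DU145 and PC3. It was called higher in DU145 (log2 fold change 1.06, adjusted p = 0.000913, limma) and lower in PC3 (-0.36, adjusted p = 0.0171, limma). NBR1, an autophagy receptor gene whose start lies 236 bases from the outermost annotated BRCA1 start, was called lower in PC3 (-1.18, adjusted p = 0.001, limma) and not called in DU145 (-0.10, adjusted p = 0.806, limma). The BRCA1 row of the table therefore spans several transcripts, and its reads could be shared with AC060780.1, and with NBR2 where strand was not used.

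DCTN5, a dynactin subunit gene that starts 82 bases from PALB2, was at 4.78 ± 1.40 FPKM in BPH-1, 3.18 ± 1.23 in DU145 and 3.07 ± 0.31 in PC3 (SD, n = 4). DCTN5 was called lower in PC3 (log2 fold change -0.48, adjusted p = 0.03, limma) and not called in DU145 (-0.48, adjusted p = 0.111, limma). Its gap was far smaller than that of PALB2. CIDECP, 49 bases from the FANCD2 start, was higher in PC3 (log2 fold change 0.81, adjusted p = 9.39e-05, limma) and in DU145 (1.26, adjusted p = 0.000111, limma), where FANCD2 was not called. HSCB, which overlaps the start of CHEK2 by 392 bases, was called higher in DU145 (0.87, adjusted p = 0.000607, limma) and not in PC3 (0.21, adjusted p = 0.236, limma). The pseudogenes CHEK2P2, CHEK2P3, CHEK2P4 and CHEK2P5 were listed at 0 in all libraries, and PARP1P1 had means of 0.203, 0.389 and 0.538 FPKM in BPH-1, DU145 and PC3, far below PARP1.

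The other genes of the pathways, in lists chosen with earlier results of these data known, were counted in the same fits. Their counts stand beside the shares of all genes called lower, 40.4% in PC3 and 32.3% in DU145, and called higher, 27.1% and 30.3%, and nothing particular to a list is read from them. Corrected counts are those with the trend against GC content and length divided out, where 33.8% of all genes were called lower in PC3 and 30.9% in DU145. Of 19 strand invasion and mediator genes tested, 3 were called higher and 10 lower in PC3, and 3 and 9 in DU145. SFR1, a recombination mediator, was at -1.69 in PC3 (log2 fold change). RAD54L, a motor protein of strand invasion, rose by 0.57 in PC3 and was at 8.42 ± 0.89 FPKM there against 2.09 ± 0.50 in DU145 (SD, n = 4). The corrected counts were 3 higher and 4 lower in PC3, with a median log2 fold change of 0.02, and 5 and 5 in DU145.

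The 13 genes of BRCA1 complexes and end resection had 1 higher and 10 lower in PC3 and 2 higher and 8 lower in DU145, with a median log2 fold change of -1.30 and -1.46. The corrected counts were 2 higher and 6 lower in PC3 and 2 and 5 in DU145, with medians of -0.49 and -0.28. RAD50, of the MRE11 complex that trims break ends, was at 10.5 ± 1.31 FPKM in BPH-1, 1.23 ± 0.87 in DU145 and 0.295 ± 0.172 in PC3 (SD, n = 4). Its log2 fold change was -3.15 (adjusted p = 1.28e-07, limma) in PC3 and -2.45 (adjusted p = 4.54e-05, limma) in DU145, and it remained called with the trend divided out (-2.24 and -1.16). MRE11 itself fell by 2.09 on the log2 scale in PC3. BABAM1, a subunit of the BRCA1-A complex, rose in both lines, by 0.78 and 0.52, and was not called in DU145 with the trend divided out (0.02, adjusted p = 0.836, limma).

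Of 16 Fanconi anaemia genes besides FANCD2, 1 was higher and 9 lower in PC3 and 4 higher and 6 lower in DU145. The corrected counts were 2 and 11 in PC3 and 3 and 7 in DU145. USP1, the enzyme that removes ubiquitin from FANCD2, was at 24.5 ± 2.40 FPKM in BPH-1, 4.88 ± 3.14 in DU145 and 3.76 ± 2.0 in PC3 (SD, n = 4). FANCB, of the core complex that ubiquitinates FANCD2, was at -2.07 in PC3 and -2.29 in DU145, while FAAP20, a small partner of that complex, was at 1.78 in PC3 (log2 fold changes, all called by limma). Of 11 genes of junction resolution, 3 were higher and 6 lower in PC3 and 4 and 6 in DU145, and the corrected counts were 2 and 7 and 3 and 6. BLM, the helicase mutated in Bloom syndrome, was at -2.06 and -2.03, and MUS81, a nuclease subunit, was at 1.73 in DU145.

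Of 18 checkpoint genes around ATM and ATR, 2 were higher and 12 lower in PC3 and 2 and 8 in DU145. The corrected counts were 2 and 7 in both lines, and the median log2 fold change in PC3 went from -0.67 to -0.22. TOPBP1, the activator of ATR, was at 22 ± 1.69 FPKM in BPH-1, 2.07 ± 1.94 in DU145 and 2.21 ± 1.57 in PC3 (SD, n = 4), with log2 fold changes of -3.16 and -2.99 (adjusted p = 0.00014 and 4.57e-05, limma).

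Of 12 genes of PARP and single-strand break repair besides PARP1, 4 were higher and 5 lower in PC3 and 2 and 3 in DU145, a share of lower genes near that of all genes in PC3 and below it in DU145, and the corrected counts were 5 and 4 and 2 and 5. PARP3 was higher in both lines (0.85 and 0.88), whereas PARP2, the near relative of PARP1, was at -0.75 in PC3. HPF1, the factor that directs PARP1 to serine, fell by 1.44 in PC3 and by 2.0 in DU145 on the log2 scale. Of 6 partners and relatives of CDK12, 4 were lower and none higher in PC3, by limma at an adjusted p under 0.05, and 2 were lower and 1 higher in DU145. Corrected, 2 were lower in PC3 and 1 in DU145, the median in PC3 went from -0.66 to -0.06, and CCNT2, a cyclin gene, was no longer called in PC3 (-0.11, adjusted p = 0.663, limma). Of 16 end joining genes, 3 were higher and 8 lower in PC3 and 4 and 8 in DU145, with RIF1, which shields break ends, at -3.14 and -3.35. The corrected counts were 2 and 7 and 3 and 8.

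Many repair genes are made mostly in S phase, and genes of S phase and proliferation differed too. The 23 genes of that list summed to 748 to 845 FPKM in BPH-1, 428 to 546 in DU145 and 453 to 578 in PC3, without overlap between BPH-1 and the PCa lines. Of them 2 were higher and 14 lower in PC3 and 3 and 11 in DU145, and the corrected counts were 2 and 11 and 3 and 14. TOP2A (39.1% GC) was at -4.30 and -4.37 and MKI67 (48.3% GC) at -3.15 and -4.25 in log2 fold change, while TYMS and E2F1 rose in both lines. The part of proliferation in the levels of the 9 genes was not tested. Between PC3 and DU145 the repair lists had from 0 to 2 genes called higher and from 1 to 6 called lower each.

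The promoters of the 9 genes were searched for motifs. RefSeq (GRCh38.p14) gave 11 starts, with 2 each for BRCA1 and ATM, and the 250 bases before each start were read on both strands. The ETS core CCGGAAG was in 5 of the 11, in FANCD2, ATR, ATM, BRCA2 and PALB2, and in 8.52% of 35116 promoters of the same length. TGACG, a part of the cAMP response element, was in 6 of the 11 and in 21.2% of all promoters, and CCAAT in 5 and in 32.0%. The full element TGACGTCA was in 0 of the 11 and in 1.65% of all promoters. The E2F motif TTTNNCGC was in 1 of the 11, that of CHEK2, and in 5.92%. GGGCGG was in 4 of the 11 and in 42.6%, TTTGAA in 1 and in 13.3%, and the NRF1 motif in 0 and in 1.03%. The ETS core is in FANCD2, which was not called, and CDK12, which was lower, holds none of the motifs searched. The 11 windows come from 9 genes picked by name, and the part of any motif in their levels was not tested. The windows of ATR and BRCA2, among the most lowered, and of CHEK2 and PARP1, which were higher in PC3, are given below with TGACG, ETS, CCAAT and E2F matches in capitals, read 5′ to 3′ towards the gene. They lie at chr3:142578734-142578983 (minus strand), chr13:32315258-32315507 (plus strand), chr22:28741821-28742070 (minus strand) and chr1:226408094-226408343 (minus strand). Their GC content is 69.6%, 61.6%, 58.8% and 70.4%, where the median of all promoters is 58.0%, and PARP1 has no match in capitals.
ATR: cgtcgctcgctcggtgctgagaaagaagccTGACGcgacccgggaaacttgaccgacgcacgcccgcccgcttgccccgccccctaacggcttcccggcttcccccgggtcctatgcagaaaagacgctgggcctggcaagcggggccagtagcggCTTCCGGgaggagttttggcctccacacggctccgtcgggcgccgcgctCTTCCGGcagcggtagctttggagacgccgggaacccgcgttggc
BRCA2: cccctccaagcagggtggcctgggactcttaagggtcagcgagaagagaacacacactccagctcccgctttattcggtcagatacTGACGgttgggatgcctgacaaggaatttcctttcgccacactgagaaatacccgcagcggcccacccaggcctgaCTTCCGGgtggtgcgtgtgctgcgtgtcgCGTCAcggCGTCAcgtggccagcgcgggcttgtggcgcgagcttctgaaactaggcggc
CHEK2: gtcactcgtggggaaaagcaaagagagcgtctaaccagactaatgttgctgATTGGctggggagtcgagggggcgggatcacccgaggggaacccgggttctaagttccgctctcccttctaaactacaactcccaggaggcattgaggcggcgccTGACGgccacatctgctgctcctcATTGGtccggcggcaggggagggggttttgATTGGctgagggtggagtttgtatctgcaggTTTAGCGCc
PARP1: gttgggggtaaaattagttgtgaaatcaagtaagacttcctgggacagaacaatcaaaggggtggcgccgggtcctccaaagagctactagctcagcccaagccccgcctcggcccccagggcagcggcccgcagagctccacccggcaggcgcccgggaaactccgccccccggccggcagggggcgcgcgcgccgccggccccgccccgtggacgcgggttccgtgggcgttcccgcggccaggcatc

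Over the 12 libraries the lowered genes resembled each other. Pearson's r of log2(FPKM + 1) was 0.994 between ATM and ATR, 0.991 between BRCA2 and ATR and 0.968 between BRCA1 and PALB2, and it was -0.966 between BRCA2 and PARP1. These values rest on 3 lines with 4 libraries each that share composition effects, and are given as a description. Of 10839 protein-coding genes compared, those most like the lowered genes included FAM135A, REV3L and CEP290 for BRCA2 (r from 0.997 to 0.998), ZNF12 for ATM (0.999), DST for ATR (0.998), AASDHPPT for BRCA1 (0.996), NUP54 for PALB2 (0.995) and ARL6IP1 for CDK12 (0.995). For FANCD2, CHEK2 and PARP1 the nearest were SETD5 (0.989), GCNT2 (0.976) and SLC4A2 (0.990).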

How the data were processed

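RNA of BPH-1, DU145 and PC3 (4 libraries each) was extracted with TRIzol and made into libraries with a NEB Ultra RNA kit. The authors deposited 1 table of normalized expression of 58302 genes on GRCh38. Its header names no unit. The values have the form of FPKM, and the deposited FPKM are used as they stand. The submitters' processing notes name CASAVA 1.8, HISAT2 2.1.0 and edgeR. The counting program and its use of strand are not given in the sources used here. Exon lengths behind the values were those of the distinct exons of each gene in GENCODE 29 added up, and for BRCA1 and CHEK2 the length was taken from the steps of the values. Whole reads recovered from those steps (92.2% to 93.6% of low values within 0.02 of a whole number) gave the depth, 12950672 to 16309570 reads. The recovered reads served for the filter and for voom. They also set the minimum reads of genes used for the trends, the AU-rich median and the correlations. Read limits cover counting error only. All 12 columns were assigned to libraries by name, and replicates of a line differed by more than counting noise in each pair.

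A gene was tested if 4 libraries held 10 reads or more, scaled to median depth, and if its reads came to 15 or more in all. The test was limma 3.58.1 with trend in R 4.3.3, on log2(FPKM + 1), with the 2 lines compared in each fit and Benjamini-Hochberg adjustment over all genes tested. Tables and figures were made with Python 3.11.15, numpy 2.4.6, pandas 2.3.3 and matplotlib 3.10.9. The fit was tested on simulated data with known changes. The trend of log2 FPKM against GC content (spline, 5 degrees of freedom) and transcript length (3) was estimated in each library on genes with at least 50 reads and divided out in an alternative chosen after the data were seen, as were the fits without DU145 replicates 1 and 3 and PC3 replicate 4 (median deviation of AU-rich genes under -0.2 on the log2 scale) and without each pair of DU145 replicates. Other alternatives were the filter, a pseudocount of 0.1, 1 fit over all lines, a replicate block, 3 scalings, a GC trend, voom, an exact permutation test, an absolute log2 fold change over 1 and leaving out each library. The 9 genes and all lists were chosen with earlier results of these data known. Named besides are neighbours within 1000 bases or overlapping, pseudogenes by symbol, the called genes of each list that rose most (2) or fell most (2) in each comparison, and the 3 protein-coding genes (mean of at least 100 reads) most correlated with each gene. Promoters are from RefSeq and coding stretches from GENCODE 29. Results on some genes that these rules name are not reported here.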

Additional observations from a re-analysis of the deposited data

Results flagged for a closer look

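CHEK2 differed between the PCa lines in a test of the difference itself, with a log2 fold change of 0.65 for PC3 against DU145 (SE 0.14, adjusted p = 0.00452, limma), and was higher in 4 of 4 PC3 libraries. Its change against BPH-1 was 0.42 in PC3 and -0.23 in DU145, and both rest on the same BPH-1 libraries. Each gene's 4 libraries in each line, 27 groups in all, were also searched for a library far from the others, and none passed Dixon's criterion, which chance passes in about 5% of groups.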

How the results depend on the processing

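The 6 falls and the rise of PARP1 kept their direction in both PCa lines under all alternatives fitted, and lost their call in none but PARP1 under an absolute log2 fold change over 1. BRCA2 had no value under the stricter filter. Scaling to the same summed FPKM moved the median log2 fold change of all genes from -0.13 to -0.28 in PC3 and from -0.03 to -0.16 in DU145, and upper-quartile scaling moved it to 0.09 and 0.13. In DU145 against BPH-1, CHEK2 changed sign to 0.021 with the GC trend divided out, and FANCD2 to 0.092 with GC and length divided out and to 0.34 without libraries low in AU-rich transcripts. In PC3 against DU145, where differences were small, ATR changed sign to 0.083 with voom, 0.079 without DU145 replicate 2, 0.065 without DU145 replicate 4, 0.0043 without PC3 replicate 3 and 0.0698 without PC3 replicate 4, PALB2 to 0.033 without DU145 replicate 2 (-0.65 to 0.033 over all libraries left out), CDK12 to -0.092 without DU145 replicate 3 (-0.092 to 0.58) and to -0.40 without libraries low in AU-rich transcripts, and PARP1 to -0.036 without DU145 replicate 4 and to -0.035 without PC3 replicate 4 (-0.036 to 0.086). The cause was not tested. Of the 9 genes, PC3 against DU145 gave 3 calls with the GC trend divided out and 4 with GC and length divided out. It gave 4 without libraries low in AU-rich transcripts and 0 at an absolute log2 fold change over 1. The exact permutation test called 0 of the 9 and 0 of all genes in that comparison (7635 at an unadjusted p under 0.05), whereas limma called 7930. Its smallest possible p, which CHEK2 reached, gave an adjusted p of 0.0614 (exact permutation test) there. It could therefore call no gene, and nothing is read from its 0 calls. With an absolute log2 fold change over 1, all genes called numbered 4426 for PC3 and 4888 for DU145 against BPH-1, and 3172 between the PCa lines. Leaving out each library in turn, 1 or 2 genes did not overlap between PC3 and DU145, with FANCD2 the added gene without PC3 replicate 4. No label stated that equal replicate numbers share a day or culture. Correlations of same-numbered libraries' deviations from their line mean ran from -0.695 to 0.558 in PC3 against DU145. These deviations also hold each library's shift in AU-rich transcripts, so they cannot show whether the libraries are paired. With the replicate block, 8, 7 and 1 of the 9 genes were called in the 3 comparisons, and all genes called were 10730, 10118 and 6736, which changed no call of the 9 genes. Depth limited BRCA2 most, with 5 reads in PC3 replicate 4.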
